A study of Mus musculus with 8 samples.

Results

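The genes described here are 43 members of the pathway that runs from insulin and nutrient inputs to the mechanistic target of rapamycin (mTOR), with the tuberous sclerosis complex (TSC) at its centre. They were chosen by gene symbol for what their proteins are known to do, and all 43 were found among the 32285 genes of the count matrices. They comprise Tsc1, Tsc2, Tbc1d7 and Rheb, the subunits of the mTOR complexes (Mtor, Mlst8, Deptor, Rptor, Akt1s1, Rictor, Mapkap1 and Prr5), substrates of mTORC1 (Rps6kb1, Rps6kb2, Eif4ebp1, Eif4ebp2 and Ulk1), genes of the insulin, PI3K and AKT arm (Irs1, Irs2, Grb10, Pik3ca, Pik3cb, Pik3r1, Pdpk1, Akt1 and Akt2), the Rag GTPases (Rraga, Rragb, Rragc and Rragd), Ragulator subunits (Lamtor1, Lamtor2, Lamtor4 and Lamtor5), folliculin and its partners (Flcn, Fnip1 and Fnip2), GATOR1 (Depdc5, Nprl2 and Nprl3), and AMPK catalytic subunits with LKB1 (Prkaa1, Prkaa2 and Stk11).

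RNA was read from nuclei of the ventricular-subventricular zone (V-SVZ), the neural stem cell niche along the lateral ventricles, of mice at postnatal day 90. The groups were 4 Tsc2 wt/wt mice and 4 Tsc2 mut/mut mice, each with 1 library made with the 10x Genomics 3′ kit. The Tsc2 mut/mut mice carried the conditional Tsc2 tm1.1Mjg allele, and mice of both genotypes carried a tdTomato reporter at Rosa26 that Cre recombinase switches on. From each mouse tdTomato-positive nuclei were sorted. The paper states that its preparations were enriched in neural stem cells but held many other cell types. Genotype was assigned per mouse from sample titles that read Control or TSC. Whether a barcode came from a cell with a recombined Tsc2 allele was not tested. The study used electroporated CAG-CRE and a tamoxifen-inducible Nestin-Cre in different experiments, and which of them marked the cells of these libraries is not given in the sources used here. Counting was from the 3′ end of transcripts, so a Tsc2 transcript from a recombined allele that lacks internal exons is still counted and the Tsc2 values below are no check of the deletion.

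As background, the proteins of Tsc1, Tsc2 and Tbc1d7 form a complex that switches off the small GTPase Rheb, and Rheb bound to GTP activates mTORC1 at the lysosome. Growth factor signals pass through insulin receptor substrates, PI3K and AKT to inhibit the TSC complex, amino acids act through Ragulator and the Rag GTPases to bring mTORC1 to the lysosome, and GATOR1, the folliculin complex and AMPK adjust these inputs. Loss of the TSC complex in neural stem cells leaves mTORC1 active, and the protein-level switches of the pathway need not be visible in the RNA of its own genes.

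The libraries held between 11182335 and 36773832 UMIs (molecules counted), and 37881 barcodes with at least 300 genes were kept, 1923 to 10153 per library. Of these, 3470 had under 20% mitochondrial UMIs and are called nucleus-like (191 to 942 per mouse), and the other 34411 are called mitochondria-rich. Nucleus-like barcodes made up 9.94% ± 2.40 of kept barcodes in wild-type mice and 8.90% ± 3.16 in mutants (SD, n = 4 each), a difference of -1.05 percentage points (p = 0.6, two-sided exact permutation test). The sign of that difference turned without Tsc2 wt/wt replicate 1 (0.0589) or Tsc2 mut/mut replicate 4 (0.331), and with a minimum of 500 genes the shares were 30.2% and 48.0% (difference 17.8, p = 0.114, exact permutation test). A total of 166 barcode sequences occurred in more than 1 library. Tsc2 mut/mut replicate 4 stood apart, because 132 of its 199 nucleus-like barcodes (66.3%) carried choroid plexus markers, against 0.524% to 11% in the other libraries. The 337 barcodes gated as choroid plexus held Malat1, a transcript retained in nuclei, at 59.5 CPM (UMIs per 1000000 non-mitochondrial UMIs), compared with 27185 CPM over all nucleus-like barcodes, and 27.5% of their non-mitochondrial UMIs were Ttr, the choroid plexus transthyretin gene. Several results that include these barcodes, though not those for all kept barcodes, are therefore also given without them. Those fits removed gated barcodes only, and 669 nucleus-like barcodes outside every marker gate described below stayed in. In the latter, Ttr made up 8.10% of non-mitochondrial UMIs.

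Levels are given in CPM, which is used here to compare samples for 1 gene and not genes with each other. A gene is described as higher, lower or changed only where the quasi-likelihood test of edgeR, fitted to UMI sums per mouse over all genes, gave a Benjamini-Hochberg adjusted p under 0.05. Log2 differences are followed by their standard error in parentheses.

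The TSC complex was measured first. In nucleus-like barcodes Tsc2, which encodes tuberin, was counted at 15.3, 13.1, 17.1 and 16.5 CPM in Tsc2 wt/wt replicates 1 to 4 and at 15.9, 23.6, 14.4 and 10.1 CPM in Tsc2 mut/mut replicates 1 to 4. Its partner Tsc1, which encodes hamartin, was at 54.1, 72.3, 94.8 and 70.7 CPM in Tsc2 wt/wt mice and 68.8, 78.9, 60.5 and 20.3 CPM in Tsc2 mut/mut mice. For both genes the genotypes overlapped, and the lowest value of each was that of Tsc2 mut/mut replicate 4. The means for Tsc2 were 15.5 ± 1.74 and 16.0 ± 5.6 CPM (SD, n = 4 each), with a log2 difference of 0.18 (0.27) and an edgeR adjusted p of 0.937. The means for Tsc1 were 73.0 ± 16.7 and 57.1 ± 25.7 CPM (SD, n = 4 each), with a log2 difference of -0.25 (0.29) that was not called.

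Tbc1d7, the third subunit of the complex, stood at 9.69, 12.1, 18.6 and 16.5 CPM in Tsc2 wt/wt mice and 14, 15.3, 17.7 and 25.9 CPM in Tsc2 mut/mut mice. Rheb, the GTPase that the complex inhibits, stood at 139.7, 90, 97.9 and 111 CPM against 104, 138, 96.6 and 226 CPM. Mtor, the kinase itself, stood at 51.7, 74.9, 65.3 and 79.3 CPM against 72.2, 37.7, 67.8 and 27.0 CPM. Tsc2 mut/mut replicate 4 gave the highest Tbc1d7 and Rheb and the lowest Mtor of all 8 mice, and the remaining mutant mice lay within the wild-type range except for Mtor in replicate 2. None of the differences was called, with log2 values of 0.65 (0.45) for Tbc1d7, 0.74 (0.53) for Rheb and -0.25 (0.29) for Mtor. Without Tsc2 mut/mut replicate 4 the Rheb difference was -0.088. The log2 differences without the choroid plexus-gated barcodes of every mouse were -0.13 for Tsc1, 0.21 for Tsc2 and 0.37 for Tbc1d7. In the same fit Rheb was at 0.76 and Mtor at -0.48, and none of these genes was called.

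Mitochondria-rich barcodes, the larger class, gave a second reading of the same genes. There Tsc2 was at 25.1, 25.4, 20.2 and 25.9 CPM in Tsc2 wt/wt mice and 22.6, 20.8, 20.6 and 17.3 CPM in Tsc2 mut/mut mice, with overlap only through Tsc2 wt/wt replicate 3, and the log2 difference of -0.27 (0.16) was not called (edgeR adjusted p = 0.479). Rheb ranged from 147 to 169 CPM over all 8 mice and its log2 difference was -0.02 (0.10). Averages of wild-type and mutant mice were 19.6 ± 4.48 and 21.9 ± 3.05 CPM for Tsc1, 15.2 ± 2.68 and 14.6 ± 2.25 CPM for Tbc1d7, and 21.2 ± 5.57 and 18.3 ± 5.71 CPM for Mtor (SD, n = 4 each). No gene of the TSC core was called in either class of barcodes.

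**Figure D1:**
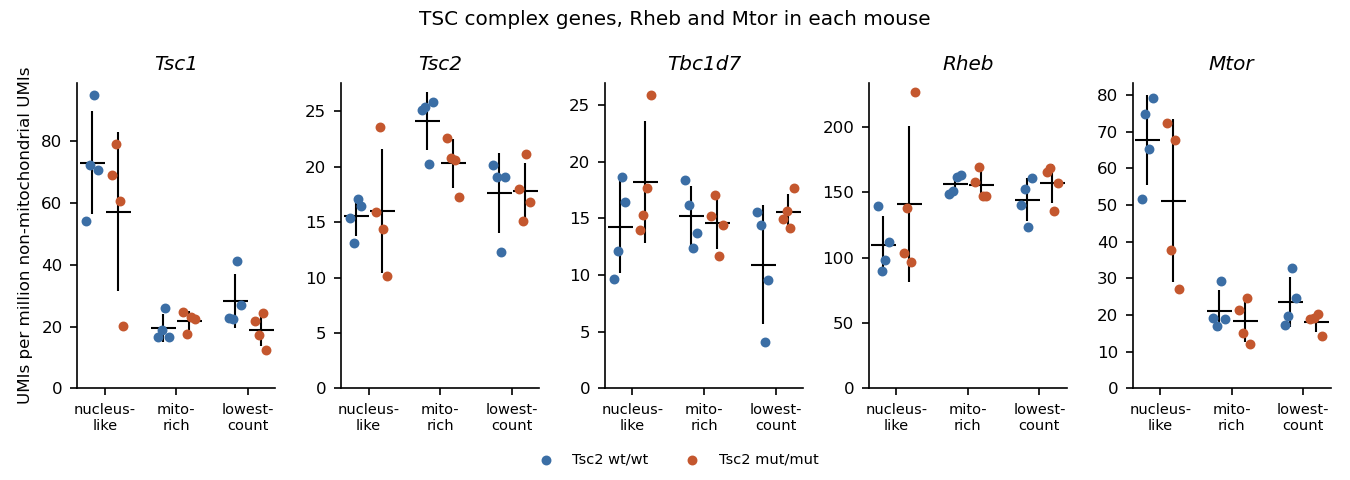
CPM of Tsc1, Tsc2, Tbc1d7, Rheb and Mtor, with 1 point per mouse in nucleus-like, mitochondria-rich and lowest-count barcodes, and bars at the mean of each genotype. The genotypes overlap in nucleus-like barcodes for each of these genes, and Tsc2 mut/mut replicate 4 lies highest for Rheb at 226 CPM.

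Between genotypes, no member was called in any comparison. In all kept barcodes 0 of 43 members were called against a background of 0.0153% of 13060 genes, and 0 had an unadjusted p under 0.05 (2.58% of genes did). DESeq2 also called 0 members there, and the smallest p was that of Akt2, a kinase of the insulin arm, at a log2 difference of -0.32 (0.17). In nucleus-like barcodes 0 of 42 members were called (Eif4ebp1 was too low to test), where 0% of 11007 genes were called and 1.54% had an unadjusted p under 0.05, and DESeq2 called 0 members. A sum over barcodes cannot tell fewer nuclei of a type from less RNA per nucleus.

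The 5 members with the smallest p between genotypes in nucleus-like barcodes were mostly lysosomal scaffold genes. Lamtor4, a Ragulator subunit, was at 66.2, 32.4, 21.8 and 43.2 CPM in Tsc2 wt/wt mice and 35.6, 62.4, 49.4 and 160.0 CPM in Tsc2 mut/mut mice. Lamtor5 was at 64.6, 41.9, 24.9 and 40 CPM against 34.7, 50.6, 54.6 and 137 CPM, and Lamtor2 at 121, 50.1, 34.2 and 80.9 CPM against 52.9, 107, 81.5 and 231 CPM. In all 3 Ragulator genes the highest mouse was Tsc2 mut/mut replicate 4, the library rich in choroid plexus barcodes, and the other mutant mice lay inside the wild-type range.

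Akt1, a serine-threonine kinase downstream of PI3K, was at 28.3, 29.8, 18.6 and 18.1 CPM in Tsc2 wt/wt mice and 33.7, 36.5, 21.4 and 43.9 CPM in Tsc2 mut/mut mice. Rragd, a Rag GTPase, was at 25.8, 19.2, 17.1 and 22.0 CPM against 17.3, 24.7, 28.0 and 47.3 CPM. For Akt1 3 of 4 mutant mice were above all wild-type mice, while for Rragd 2 of 4 were. The log2 differences were 1.34 (0.73) for Lamtor4, 1.11 (0.67) for Lamtor5, 1.14 (0.72) for Lamtor2, 0.77 (0.43) for Akt1 and 0.79 (0.52) for Rragd, each with an edgeR adjusted p of 0.922. Without Tsc2 mut/mut replicate 4 they were 0.10, -0.014, 0.0072, 0.21 and 0.045 in that order, and without the choroid plexus-gated barcodes of every mouse they were 1.46, 0.61, 1.41, 0.48 and 0.71, again with 0 members called. In the latter fit Tsc2 mut/mut replicate 4 kept only 67 nucleus-like barcodes.

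Mitochondria-rich barcodes were the class with the most small p-values, although 0 of 41 members were called (0.271% of 10702 genes were, and Rps6kb2 and Rragb were too low to test). There 9 members had an unadjusted p under 0.05, where 13.8% of genes did. The 3 smallest were Akt2 at -0.41 (0.12) with an edgeR adjusted p of 0.14, Deptor, an mTOR inhibitor, at 0.67 (0.20) with 0.143, and Stk11, which encodes the AMPK kinase LKB1, at -0.41 (0.12) with 0.157. The others were Fnip1 at 0.49, Prkaa1 at 0.58, Akt1s1 at -0.30, Rps6kb1 at 0.41, Rptor at 0.45 and Irs1 at 0.51. With no filter on low counts Akt2 alone passed, at -0.43 and an edgeR adjusted p of 0.0294, and DESeq2 called 0 members. The difference between the genotype effects of the 2 barcode classes was called for 0 of 43 members (0% of 13026 genes), with 0 members and 4.86% of genes at an unadjusted p under 0.05. The 59 further genes of the pathway gave the same count, with 0 called between genotypes in each of these comparisons.

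**Figure D2:**
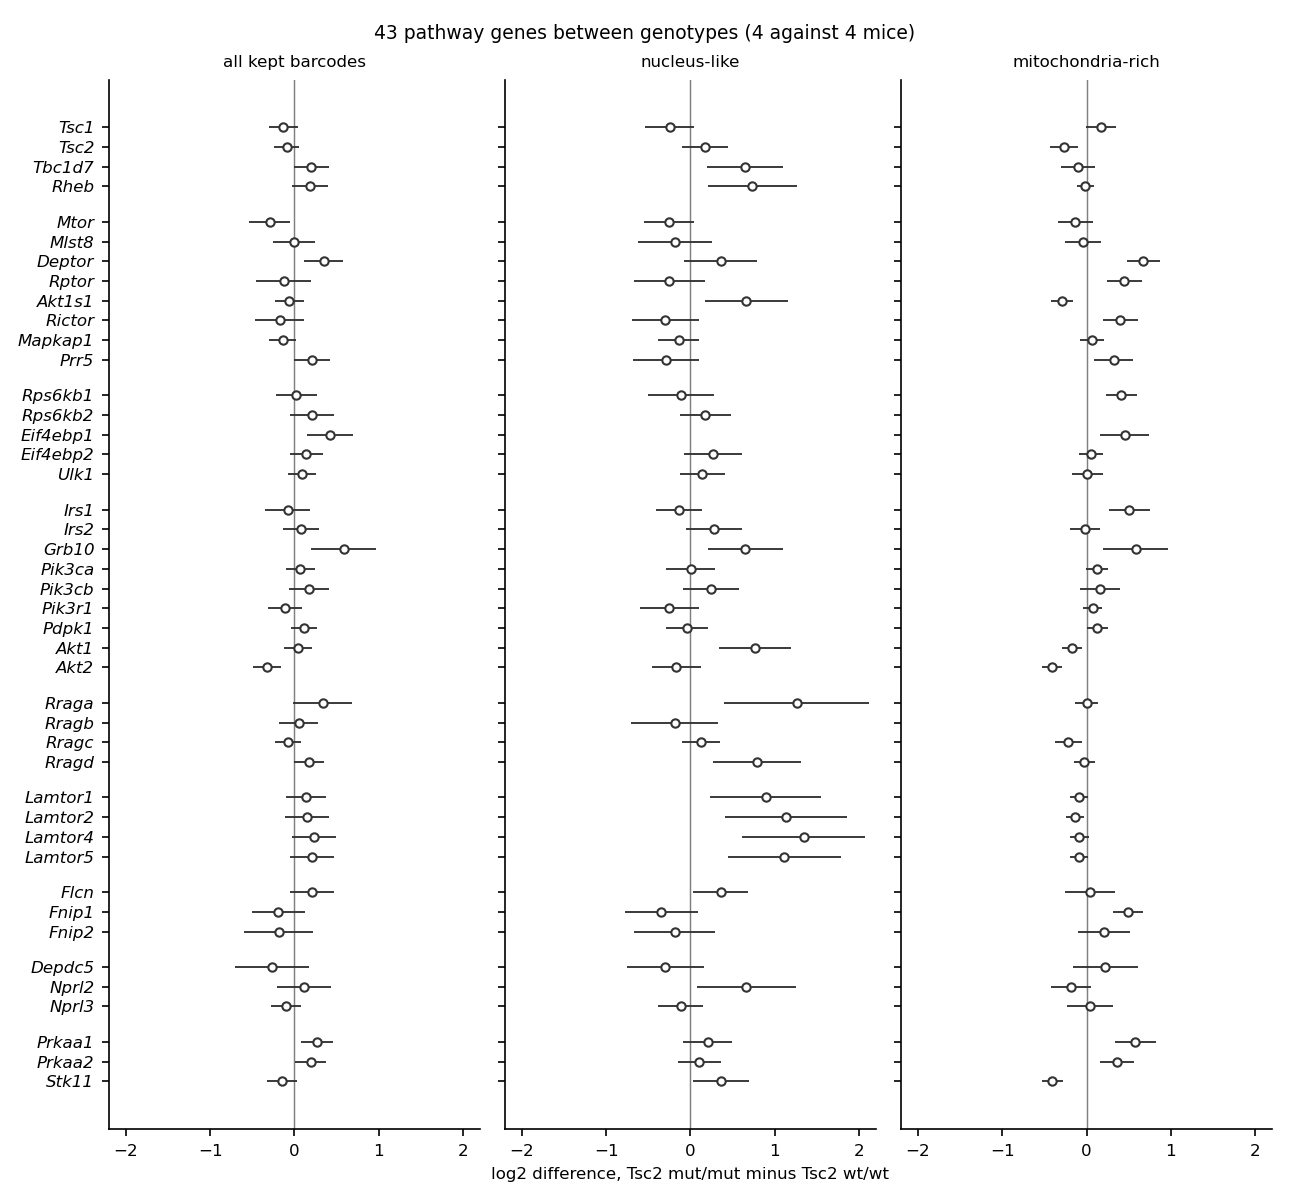
Log2 difference between Tsc2 mut/mut and Tsc2 wt/wt mice with its standard error for each member, drawn as open circles. The panels show all kept, nucleus-like and mitochondria-rich barcodes, from left to right. No member was called in any panel. The errors are wider in nucleus-like than in mitochondria-rich barcodes for each member with both values except Nprl3. Members that were too low to test have no circle.

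The 2 classes of barcodes differed in most members. Of the 43 members, 37 differed between nucleus-like and mitochondria-rich barcodes of the same mice, 19 higher and 18 lower, but this was close to the background, where 78.1% of 11231 genes were called, 39.3% higher and 38.8% lower. The median log2 difference was 0.19 over members and -0.01 over all genes. With total UMIs in place of the scaling by edgeR, the median of all genes moved by 0.61, and 33 members were called, 22 higher and 11 lower, with 66.1% of called genes higher in place of 50.3%. The direction of 1 called member, Pdpk1, turned under that scaling, where it was not called.

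The scaffolds of both mTOR complexes were higher in nucleus-like barcodes. Rptor, which encodes the mTORC1 scaffold raptor, was at 23.7 CPM in the lowest, 155 in the median and 181 in the highest mouse in nucleus-like barcodes, and at 11.8, 20.9 and 33.5 CPM in mitochondria-rich barcodes, a log2 difference of 1.96 (0.24). Rictor, the mTORC2 scaffold, was at 16.9, 108 and 134 CPM against 7.81, 15.7 and 18.5 CPM, a difference of 2.07 (0.26). Mtor at 1.00 (0.17), the mTORC2 subunit Mapkap1 at 0.94 (0.15) and Deptor at 0.65 (0.22) were also higher, whereas the mTORC1 inhibitor Akt1s1 at -1.82 (0.26) and the shared subunit Mlst8 at -1.05 (0.23) were lower and the mTORC2 subunit Prr5 was not called. In the lowest mouse for Rptor and Rictor, Tsc2 mut/mut replicate 4, most nucleus-like barcodes were the choroid plexus-gated ones.

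Within the TSC group the complex was split, since Tsc1 was higher by 1.00 (0.18) in nucleus-like barcodes, Tsc2 lower at -1.11 (0.16) and Tbc1d7 not called, while Rheb was lower at -0.96 (0.25). Tsc1 was above its mitochondria-rich level in 7 of 8 mice and Tsc2 below in 7 of 8. With total UMIs as the scaling Tsc2 stayed lower at -0.50, and 7 members lost their lower call, namely Mlst8 (-0.45), Ulk1 (-0.37), Rheb (-0.35), Eif4ebp2 (-0.23), Nprl2 (-0.10), Rragc (-0.022) and Pdpk1 (0.096). Among the mTORC1 substrates, the S6 kinase genes Rps6kb1 at 1.58 (0.26) and Rps6kb2 at 1.74 (0.21) were higher, and the translation repressor genes Eif4ebp1 at -1.65 (0.32) and Eif4ebp2 at -0.83 (0.17) and the autophagy kinase gene Ulk1 at -0.98 (0.18) were lower. Of the 9 insulin, PI3K and AKT genes, Irs1 at 1.64, Grb10 at 1.27, Pik3cb at 1.15 and Pik3r1 at 0.49 were higher, Pdpk1 at -0.51, Akt2 at -1.15 and Akt1 at -2.39 lower, and Pik3ca and Irs2 not called.

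Ragulator, the scaffold that anchors the Rag GTPases to the lysosome, has 4 of its genes among the members, and these 4 were lower in nucleus-like barcodes. Lamtor2 was at 34.2, 81.2 and 231 CPM in the lowest, median and highest mouse against 203, 243 and 267 CPM in mitochondria-rich barcodes, a log2 difference of -2.14 (0.35). Lamtor1, its membrane anchor, was at 18.6, 47.4 and 115 CPM against 122, 138 and 156 CPM, a difference of -2.10 (0.32). Lamtor4 at -1.77 (0.35) and Lamtor5 at -1.68 (0.29) followed, and the high nucleus-like value was again that of Tsc2 mut/mut replicate 4. Lamtor3, the Ragulator gene on the further list, was lower at -0.64 (0.22) and was not called with total UMIs as the scaling. The Rag GTPases did not move together, as Rragb was higher at 1.81 (0.36), Rragd at -1.85 (0.26) and Rragc at -0.64 (0.15) were lower, and Rraga at -0.82 (0.36) was not called (edgeR adjusted p = 0.0511). Without choroid plexus-gated barcodes Rraga was lower at -1.62 and Tbc1d7 at -0.66, which gave 39 called members, 19 higher and 20 lower.

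Because these 4 Ragulator genes lay on the same side here and in NSC/astrocyte-like and choroid plexus-like barcodes below, though not in every class, the 250 bases before their transcription starts are shown, from RefSeq on GRCm38.p6. The capitals mark CACGTG, the core of the E-box read by MiT/TFE factors, the lysosomal gene regulators that mTORC1 controls. CACGTG reads the same on both strands.

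Lamtor1, chr7:101905587-101905836, plus strand: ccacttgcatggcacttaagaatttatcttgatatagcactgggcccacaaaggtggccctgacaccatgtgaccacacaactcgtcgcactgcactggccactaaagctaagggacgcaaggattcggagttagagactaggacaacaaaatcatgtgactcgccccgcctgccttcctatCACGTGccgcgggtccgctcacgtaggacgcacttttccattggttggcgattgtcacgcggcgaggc

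Lamtor4, chr5:138255232-138255481, plus strand: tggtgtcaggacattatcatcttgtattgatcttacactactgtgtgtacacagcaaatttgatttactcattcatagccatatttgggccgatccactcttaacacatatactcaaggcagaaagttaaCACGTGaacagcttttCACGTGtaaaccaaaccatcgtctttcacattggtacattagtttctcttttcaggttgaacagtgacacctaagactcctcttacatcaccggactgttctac

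Lamtor2, chr3:88552952-88553201, minus strand: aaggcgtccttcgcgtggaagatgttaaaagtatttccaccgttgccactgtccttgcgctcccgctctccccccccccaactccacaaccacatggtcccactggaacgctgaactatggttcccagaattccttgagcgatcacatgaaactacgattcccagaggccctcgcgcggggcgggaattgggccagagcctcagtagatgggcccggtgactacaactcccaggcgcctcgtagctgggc

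Lamtor5, chr3:107278608-107278857, plus strand: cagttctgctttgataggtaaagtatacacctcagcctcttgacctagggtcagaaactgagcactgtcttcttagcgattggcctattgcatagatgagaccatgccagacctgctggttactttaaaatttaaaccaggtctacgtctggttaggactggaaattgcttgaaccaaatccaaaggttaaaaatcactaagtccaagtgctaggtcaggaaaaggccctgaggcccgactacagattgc

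The hexamer was found once before Lamtor1, 68 bases upstream of the start, and at 2 places before Lamtor4, 120 and 104 bases upstream, and was not in the windows of Lamtor2 and Lamtor5. Over all members it was in 9 of the 40 with a window (Fnip1, Irs1, Irs2, Lamtor1, Lamtor4, Rheb, Rragb, Rragc and Tbc1d7), and it was in 6.02% of 32851 windows of that length. The CLEAR motif, an extended form of the hexamer, was in 0 members and in 0.24% of windows. These are matches of letters, and both directions of change were found among genes with the hexamer.

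Folliculin, its partners and the GATOR1 subunits act on the Rag GTPases, and all of their 6 genes except Nprl2 were higher in nucleus-like barcodes, beside 39.3% of all genes. Fnip2, a folliculin partner, was at 7.89, 84.2 and 101 CPM in the lowest, median and highest mouse against 2.93, 8.21 and 11.7 CPM in mitochondria-rich barcodes, a log2 difference of 2.60 (0.27). Depdc5, a GATOR1 subunit, was at 12.4, 106 and 138 CPM against 5.28, 9.96 and 19.5 CPM, a difference of 2.51 (0.23). Fnip1 at 1.80 (0.24), Flcn at 1.06 (0.21) and the GATOR1 gene Nprl3 at 0.85 (0.21) were also higher and Nprl2 at -0.68 (0.24) lower. Of the AMPK and LKB1 genes, Prkaa1 at 0.88 (0.16) was higher, Stk11 at -1.36 (0.19) lower and Prkaa2 not called. The strongest fall was that of Akt1, at 18.1, 29.0 and 43.9 CPM against 76.8, 104 and 117 CPM, with every nucleus-like value below every mitochondria-rich one.

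**Figure D3:**
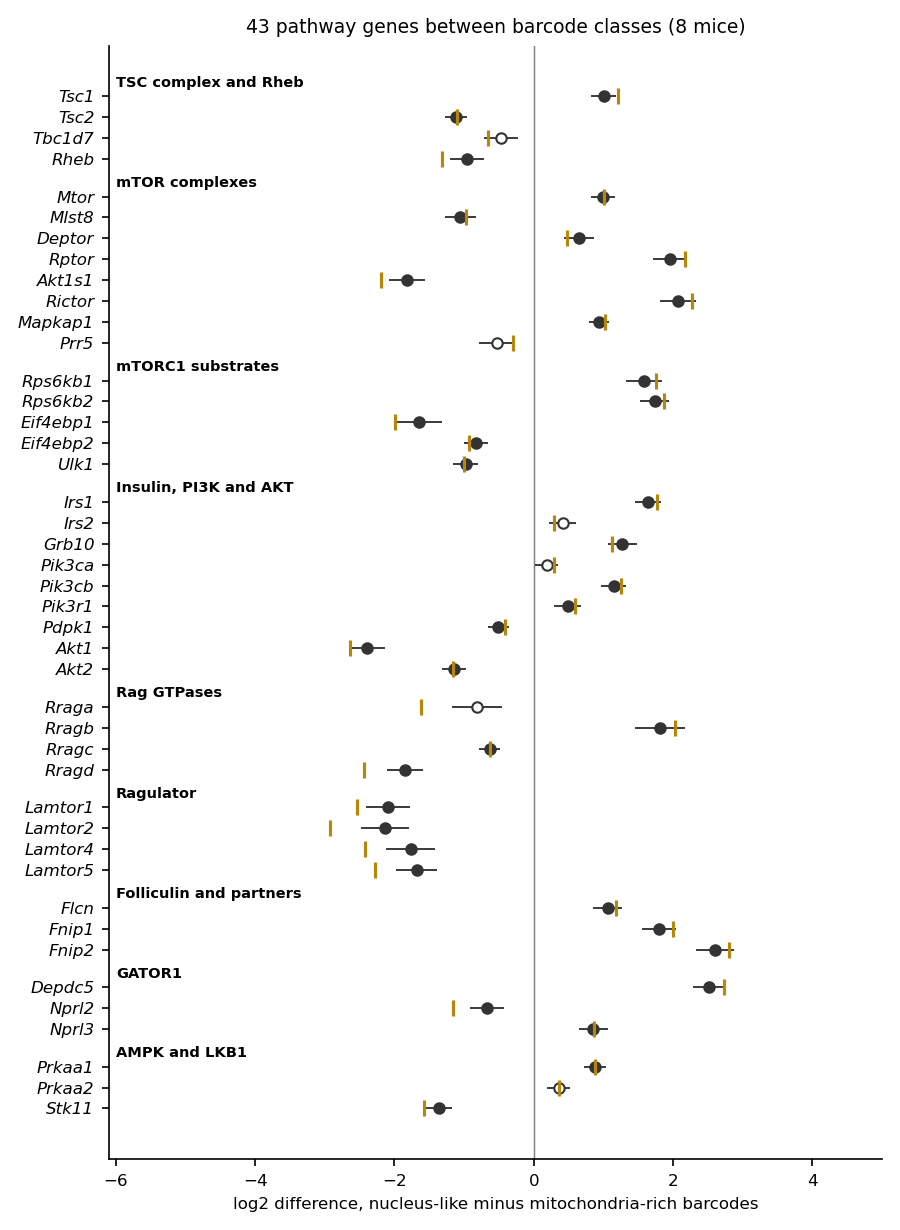
Log2 difference between nucleus-like and mitochondria-rich barcodes for each of the 43 members, grouped by role, with its standard error, filled points for called members and a gold tick for the value without choroid plexus-gated barcodes. The 4 Ragulator members lie below 0, the folliculin group lies above 0, and the gold ticks of the Ragulator genes lie further below.

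The side on which a member fell went with the length of its gene. Of the 8 members with a span under 10 kb in GRCm38, 1 was higher in nucleus-like barcodes, 6 were lower and 1 was not called, and the 4 Ragulator genes spanned 3.26 kb (Lamtor2) to 20.8 kb (Lamtor1). Of the 12 members over 80 kb, 11 were higher and 0 were lower. In between, 3 of 16 members of 10 to 40 kb and 4 of 7 members of 40 to 80 kb were higher, and 10 and 2 were lower. Among all genes tested, of any span, 39.3% were higher and 38.8% lower. Whether the relation of span to barcode class is particular to these members was not tested. Across the 43 genes, which are not independent replicates, span and log2 difference had a Pearson r of 0.635 and a Spearman rho of 0.652 (Pearson 0.625 without the 2 genes farthest from the median span, and 0.670 without choroid plexus-gated barcodes). The points share the same 8 libraries, and exonic length, which goes with span, had an r of 0.590. Whether introns were counted is not given in the sources used here, so its part in this relation was not tested.

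**Figure D4:**
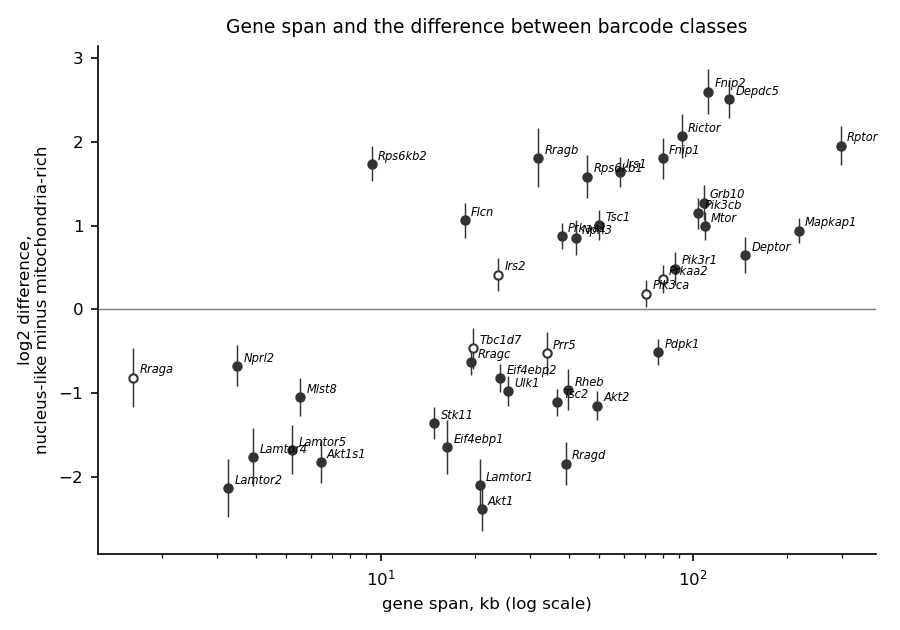
Log2 difference between nucleus-like and mitochondria-rich barcodes against the genomic span of the gene in kb on a log axis, with 1 point per member. The called members over 80 kb lie above 0 and 1 member over 80 kb was not called, and most members under 40 kb lie below 0.

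The 20000 barcodes with the fewest UMIs in each library were read as a further class. These held 27 to 55 UMIs each in Tsc2 wt/wt replicate 3 and 368 to 461 in Tsc2 mut/mut replicate 3, and whether they are empty droplets was not tested. Against them the mitochondria-rich barcodes differed in 0 of 42 members with edgeR (2.12% of 10395 genes were called), and in 0 with DESeq2. An unadjusted p under 0.05 was reached by 2 members, Akt2 and Mlst8, and by 15.4% of genes. Rheb, for example, was at 140.0, 152, 123 and 161 CPM in the lowest-count barcodes of Tsc2 wt/wt mice and at 148, 151, 161 and 163 CPM in their mitochondria-rich barcodes. Tsc2 was at 20.1, 19.1, 12.3 and 19.1 CPM in the lowest-count barcodes of the same mice, below its mitochondria-rich level in 4 of 4, though the difference over all 8 mice was not called. With the limit between classes at 10% mitochondrial UMIs, 4 members were called (Fnip2 0.85, Rptor 0.73, Lamtor2 -0.31 and Lamtor1 -0.30). The share of all genes called at that limit is not given here, so this count describes the setting only.

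To place the members in cell types, nucleus-like barcodes were gated on marker lists, needing at least 3 markers of a class and at least 2 times as many as of any other class. This gate kept 2801 of the 3470 barcodes, and the class names say only that these markers were found. Every marker of the 6 largest classes was at least 2-fold higher in its class, which the gate itself brings about. Because no class had 10 barcodes in all 8 mice, each was compared with the other nucleus-like barcodes of the same mouse over the mice that had at least 10. Log2 differences are given relative to the median gene tested, which lay between -0.22 and -0.02 in the 5 classes, and total UMIs as the scaling moved that median by -0.12 (NSC/astrocyte-like), -0.13 (oligodendrocyte-like), 0.20 (microglia-like), 0.11 (ependymal-like) and -0.61 (choroid plexus-like). No called member changed sign under that scaling or with DESeq2. Counts of called members under other settings are given without the share of all genes called, except for DESeq2, and describe the setting only.

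NSC/astrocyte-like nuclei (1218 barcodes, 7 mice, with Tsc2 mut/mut replicate 4 left out for its 5 barcodes) were compared with the other nucleus-like barcodes. They were higher in Prr5, Akt2, Rragb and Prkaa2 and lower in Rraga and the 4 Ragulator members. Of 40 members tested, 27 were called, 15 higher and 12 lower, near the background of 61.8% (28.2% higher and 33.7% lower). Prr5, a subunit of mTORC2, was at 20.1, 32.8 and 41.4 CPM in the lowest, median and highest mouse against 2.06 ± 1.30 CPM (SD, n = 7) in the other nuclei, a relative log2 difference of 4.01 (0.35), and had 0 UMIs in the oligodendrocyte-like class, where 3 UMIs would be 2.58 CPM. Akt2 was at 95.4, 108 and 189.9 CPM against 36.5 ± 8.14 CPM, a difference of 1.78 (0.21), with 18.5% of the 50-base words of its 3′ ends shared with its pseudogene. Prkaa2, the catalytic AMPK subunit alpha 2, was at 40.2, 70.5 and 87.0 CPM against 27.9 ± 6.44 CPM, a difference of 1.40 (0.17). Each of these 3 genes was higher in 7 of 7 mice.

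The closely related Rag GTPase genes Rraga and Rragb took opposite sides in the NSC/astrocyte-like class. Rragb was at 38.5, 48.2 and 51.7 CPM against 17.4 ± 6.31 CPM in the other nuclei (1.51, SE 0.20, higher in 7 of 7 mice), and Rraga at 3.80, 5.79 and 16.6 CPM against 50.5 ± 25.8 CPM (-2.61, SE 0.29, lower in 7 of 7). In the same nuclei Lamtor2 was at 14.4, 17.4 and 23.2 CPM against 109 ± 40.2 CPM (-2.34, SE 0.22). Lamtor5 at -1.75 (0.25), Lamtor4 at -1.68 (0.28), Lamtor1 at -1.11 (0.21) and Grb10, an adaptor that damps insulin signalling, at -1.41 (0.36) were lower as well. Without choroid plexus-gated barcodes the 4 Ragulator genes stayed lower (-1.51 for Lamtor2, -1.19 for Lamtor5, -0.96 for Lamtor4 and -0.61 for Lamtor1). The other nuclei of that fit still included the ungated barcodes, which held Ttr at 81006.5 CPM against 34.5 CPM in the NSC/astrocyte-like class. Rraga and Grb10 were not tested in that fit, and 21 of 34 members were called, 13 higher and 8 lower. Lamtor3, the Ragulator gene on the further list, was not called in that fit (0.00090) or with total UMIs as the scaling (-0.38). Rraga averaged 6.96 ± 7.68 CPM (SD, n = 7) in microglia-like and 8.78 ± 16.6 CPM (SD, n = 6) in ependymal-like nuclei. Lamtor2 averaged 18.0 ± 20.6 CPM (SD, n = 6) in ependymal-like nuclei, so low levels of these genes are not particular to the NSC/astrocyte-like class. With the gate applied to all kept barcodes 14 members were called, and Lamtor5 (log2 difference 0.15) and Lamtor4 (0.0016) turned direction, while a stricter gate also gave 14 calls.

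Among the core genes of the NSC/astrocyte-like class, Mtor was higher by 0.98 (0.17) and in 7 of 7 mice, Flcn by 1.12 (0.27), Depdc5 by 1.03 (0.17) and Tsc1 by 0.47 (0.18), and Rheb lower at -0.72 (0.22), while Tsc2 at -0.08 and Tbc1d7 at 0.20 were not called. The calls of Tsc1 and Rheb were lost without choroid plexus-gated barcodes. Between genotypes this class gave 0 of 30 members called (0.043% of 6980 genes), with Flcn alone at an unadjusted p under 0.05 (log2 difference 0.78, edgeR adjusted p = 0.557), where 7.25% of genes were. There the wild-type (n = 4) and mutant mice (n = 3) averaged 14.5 ± 2.7 and 14.9 ± 2.0 CPM for Tsc2, and 97.3 ± 20.1 and 76.9 ± 20 CPM (SD) for Mtor. With DESeq2 the class comparison called 24 members, 12 higher and 12 lower, and with total UMIs 24, 11 higher and 13 lower. Of all genes, DESeq2 called 5263 of 9016.

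Oligodendrocyte-like nuclei (499 barcodes, the same 7 mice) were higher in Tsc1 and Rictor than the other nucleus-like barcodes. Of 31 members tested, 15 were called, 10 higher and 5 lower, near the background of 53.5% (21.7% higher and 31.8% lower). Tsc1 was at 127, 138 and 200.2 CPM in the lowest, median and highest mouse against 62.4 ± 12.8 CPM (SD, n = 7) in the other nuclei, a relative log2 difference of 1.42 (0.17). Rictor was at 120.1, 189.9 and 362 CPM against 102 ± 17.9 CPM, a difference of 1.08 (0.17). Both were higher in 7 of 7 mice. Endothelial-like nuclei held Rictor, and inhibitory neuron or neuroblast-like nuclei Tsc1, at similar pooled levels in few barcodes, as given below. Irs2, an insulin receptor substrate gene, at 0.99 (0.21), Fnip2 at 0.98 (0.18) and Rps6kb2 at 0.91 (0.26) followed, the last losing its call with DESeq2, with no filter or without choroid plexus-gated barcodes.

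Lower in oligodendrocyte-like nuclei were Akt2 at 14.6, 23.2 and 40 CPM against 79.9 ± 20.8 CPM (-1.47, SE 0.29, lower in 7 of 7 mice) and Irs1 at 0, 23.9 and 66.7 CPM against 60.8 ± 9.81 CPM (-1.25, SE 0.36). The other nuclei here, as for the classes below, include the NSC/astrocyte-like ones, where Akt2 was high. Akt2 averaged 34.9 CPM in microglia-like and 31.9 CPM in ependymal-like nuclei, near the 36.5 CPM of nuclei outside the NSC/astrocyte-like class. Rheb at -0.81 (0.27) and Lamtor2 at -0.96 (0.27) were lower too, the call of Lamtor2 being lost without choroid plexus-gated barcodes (edgeR adjusted p = 0.468). Rptor at -0.39 (0.19) was called narrowly and was lost on leaving out any of 6 of the 7 mice (relative differences of -0.40 to -0.29), and with the gate applied to all kept barcodes it turned to a log2 difference of 0.40. The insulin receptor substrate genes lay on opposite sides, Irs2 higher and Irs1 lower. DESeq2 called 12 members (5 higher and 7 lower), where it called 3475 of 6542 genes. Called members numbered 14 with total UMIs (7 and 7) and 10 without choroid plexus-gated barcodes (6 and 4). They numbered 28 with the gate applied to all kept barcodes and 7 with the stricter gate. Between genotypes 0 of 14 members were called in this class (0.0279% of 3582 genes), with 0 at an unadjusted p under 0.05 where 8.49% of genes were.

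Microglia-like nuclei (455 barcodes, the same 7 mice) stood out by high levels of the raptor gene and of PI3K subunit genes. Of 28 members tested, 15 were called, 9 higher and 6 lower, near the background of 59.2% (25.1% higher and 34.1% lower). Rptor was at 405, 559 and 893 CPM in the lowest, median and highest mouse against 128 ± 24.1 CPM (SD, n = 7) in the other nuclei, a relative log2 difference of 2.13 (0.21). Pik3cb, a catalytic PI3K subunit, was at 93.2, 136 and 162 CPM against 31.5 ± 11 CPM (2.02, SE 0.25), and Pik3r1, the regulatory subunit, at 435, 597 and 1191 CPM against 263 ± 55.4 CPM (1.21, SE 0.23). The folliculin partners Fnip2 at 1.52 (0.20) and Fnip1 at 1.20 (0.19) were also higher.

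In microglia-like nuclei the upstream insulin receptor substrate genes were low. Irs1 had 4 UMIs over the 7 mice and was at 0, 0 and 25.7 CPM in the lowest, median and highest mouse against 60.6 ± 9.22 CPM (-3.46, SE 0.55), and its value rests on Tsc2 mut/mut replicate 1, without which no UMI was left. Irs2 was at 0, 12.8 and 37.0 CPM against 51.3 ± 18.2 CPM (-1.58, SE 0.44, and -2.28 without Tsc2 wt/wt replicate 2). Prkaa2 had 1 UMI, in Tsc2 mut/mut replicate 3, or 1.38 CPM against 47.0 CPM, a ratio of 0.0294 (95% exact counting interval 0.000742 to 0.164). Akt2 at -1.0 (0.32) and Lamtor2 at -1.23 (0.42) were lower, and without choroid plexus-gated barcodes Lamtor2 lost its call and Lamtor1 was higher at 1.12. DESeq2 called 17 members (5 higher and 12 lower) and 4234 of 6467 genes, with 28.2% of all called genes higher in place of 42.4%. Called members numbered 19 with total UMIs (13 and 6), 12 without choroid plexus-gated barcodes (8 and 4) and 29 with all kept barcodes gated. Between genotypes 0 of 11 members were called (0.0372% of 2686 genes), with 0 at an unadjusted p under 0.05 where 8.53% of genes were.

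Ependymal-like nuclei (176 barcodes, 6 mice, replicates 1 to 3 of each genotype) were high in both insulin receptor substrate genes. Of 25 members tested, 8 were called, 3 higher and 5 lower, below the background of 46.5% (20.5% higher and 26% lower). Irs1 was at 0, 217 and 331 CPM in the lowest, median and highest mouse against 49.5 ± 6.86 CPM (SD, n = 6) in the other nuclei, a relative log2 difference of 2.09 (0.33) that was positive in 5 of 6 mice. Irs2 was at 68.0, 177 and 245 CPM against 44.5 ± 13.8 CPM (1.95, SE 0.29, higher in 6 of 6). Pik3r1, which was higher in microglia-like nuclei, was lower here at 0, 34.0 and 111 CPM against 284 ± 46.3 CPM (-2.37, SE 0.35).

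The 5 other ependymal-like calls moved with single mice. Stk11 at 1.25 (0.35) was lost without Tsc2 wt/wt replicate 3 or Tsc2 mut/mut replicate 1 and with DESeq2, and Akt2 at -1.07 (0.43) without Tsc2 mut/mut replicate 2. Lamtor1 at -1.30 (0.53) was lost without Tsc2 mut/mut replicate 3, Lamtor4 at -1.13 (0.54) without Tsc2 wt/wt replicate 1 (-0.68) or 3 and without Tsc2 mut/mut replicate 2 or 3, and Lamtor2 at -1.91 (0.48) was -2.61 without Tsc2 mut/mut replicate 3. Without choroid plexus-gated barcodes the called members were 5, namely Pik3r1, Akt2, Stk11, Irs1 and Irs2. DESeq2 called 8 members (2 higher and 6 lower), where it called 2989 of 6230 genes. Total UMIs gave 7 (3 and 4), the gate on all kept barcodes 19 and no filter on low counts 15. Between genotypes 0 of 4 members were called (0.0601% of 1663 genes), with Fnip1 at an unadjusted p under 0.05 (log2 difference 0.93, edgeR adjusted p = 0.645), where 7.46% of genes were.

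Choroid plexus-like barcodes (337 barcodes, 7 mice without Tsc2 wt/wt replicate 3, with 132 of them from Tsc2 mut/mut replicate 4) showed the Ragulator genes, Rraga and Rragd high and the long scaffold genes low. As given above, their Malat1 level was far below that of the other 6 named classes, which ranged from 17995 to 53022 CPM. It was also below the 1350 CPM of mitochondria-rich and the 2188 CPM of lowest-count barcodes. They count as nucleus-like by their mitochondrial share only. Ragulator, Rragd and Rheb were high and Depdc5, Fnip2, Rptor and Rictor low, as in mitochondria-rich against nucleus-like barcodes. Whether cell type or a lack of nuclear RNA goes with these levels was not tested. Of 31 members tested, 24 were called, 10 higher and 14 lower, near the background of 78% (37% higher and 41.1% lower). Lamtor2 was at 212, 283 and 382 CPM in the lowest, median and highest mouse against 69.3 ± 59.4 CPM (SD, n = 7) in the other nuclei, a relative log2 difference of 3.00 (0.39). Rraga was at 104, 124 and 195 CPM against 39.9 ± 50.7 CPM (3.07, SE 0.44, higher in 6 of 7 mice), and Rragb had 3 UMIs, a ratio of 0.0469 (95% exact counting interval 0.00962 to 0.138). Lamtor4 at 2.68 (0.34), Lamtor5 at 2.61 (0.31), Rragd at 2.48 (0.36), Lamtor1 at 2.21 (0.31) and Rheb at 1.87 (0.34) were higher.

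On the low side of the choroid plexus-like class, Depdc5 was at 0, 2.41 and 4.72 CPM against 115 ± 38.8 CPM (-4.58, SE 0.47) and Fnip2 at 0, 3.04 and 7.21 CPM against 91.7 ± 34.2 CPM (-4.13, SE 0.50). Rptor at -3.16 (0.41), Tsc1 at -2.81 (0.45), Rictor at -2.80 (0.45) and Mtor at -1.24 (0.48) were lower as well. Leaving out 1 mouse kept each of the 10 named calls wherever the gene had a value. Fnip2 had a value in 6 such fits, and the other named genes in 7. DESeq2 called 25 members (7 higher and 18 lower) and total UMIs 26 (8 and 18), with 33.5% and 36.2% of all called genes higher in place of 47.4%. Of all genes, DESeq2 called 5343 of 6560. Between genotypes 0 of 11 members were called (3.37% of 2610 genes), with 0 at an unadjusted p under 0.05 where 17.9% of genes were.

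**Figure D5:**
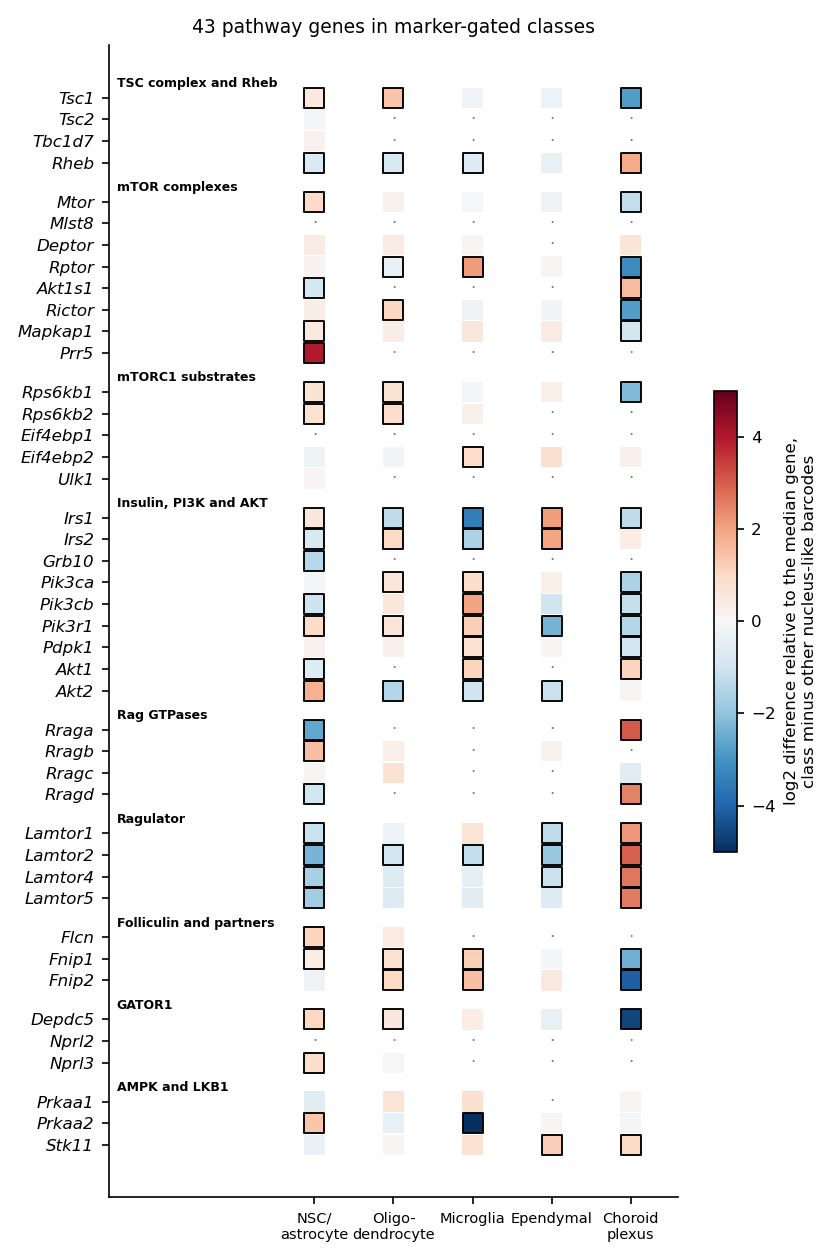
Log2 difference of each member between a marker-gated class and the other nucleus-like barcodes, relative to the median gene tested, as colour, with black edges for called values and a dot where a member was too low to test. The 4 Ragulator members are low in NSC/astrocyte-like nuclei and high in choroid plexus-like barcodes, and Prr5 is high in NSC/astrocyte-like nuclei at 4.01.

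Endothelial-like (66 barcodes) and inhibitory neuron or neuroblast-like (47 barcodes) nuclei were too few for a test, and their levels are pooled over mice with exact Poisson intervals that cover counting error only. Endothelial-like nuclei held Rictor at 238 CPM (71 UMIs, 95% interval 186 to 300) and Rheb at 157 CPM (47 UMIs, 116 to 209). Fnip1 and Grb10 each had 44 UMIs there, or 147 CPM (107 to 198), and Prr5 and Prkaa2 had 0, where 3 UMIs would be 10.0 CPM. Inhibitory neuron or neuroblast-like nuclei held Pik3ca at 197 CPM (20 UMIs, 120 to 304) and Tsc1 and Rictor each at 148 CPM (15 UMIs, 82.6 to 244). Oligodendrocyte progenitor markers gated 3 barcodes, and dividing progenitor, excitatory, striatal and mural markers 0.

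Of the 59 further pathway genes, 52 could be tested between nucleus-like and mitochondria-rich barcodes and 41 were called, 28 higher and 13 lower, beside 78.1% of all genes called, 39.3% higher and 38.8% lower. The highest were the mTORC2 subunit gene Prr5l at 3.09 (0.32), the LKB1 scaffold gene Cab39l at 2.67 (0.41) and the lipid phosphatase gene Inpp4b at 2.65 (0.25), and the lowest were Gsk3a at -3.00 (0.25), the ribosomal protein gene Rps6 at -2.70 (0.37) and Pik3r2 at -2.15 (0.17). Prr5l, the paralogue of Prr5, was at 2963 CPM in oligodendrocyte-like nuclei against 87.1 CPM in the others (relative log2 difference 5.61, SE 0.34) and at 10.2 against 648 CPM in NSC/astrocyte-like nuclei (-5.94, SE 0.36), where Prr5 was higher.

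The further genes were also read in each cell type. NSC/astrocyte-like nuclei had 21 of 48 called, 9 higher and 12 lower (61.8% of all genes were called), with Ddit4l at 1.59, Prkab2 at 1.56 and Sesn3 at 1.49 the highest and Sgk1 at -5.24 and Pik3cd at -4.35 next to Prr5l on the low side. Oligodendrocyte-like nuclei had 17 of 34 called, 8 higher and 9 lower (53.5% of all genes), with the AKT phosphatase gene Phlpp1 at 2.54 and the GATOR2 gene Wdr59 at 1.49 after Prr5l, and Inpp4b at -5.43, Prkag2 at -2.56 and Inpp4a at -2.10 the lowest. Microglia-like nuclei had 25 of 35 called, 19 higher and 6 lower (59.2% of all genes, 25.1% higher), and the leukocyte PI3K catalytic genes Pik3cd at 5.35 and Pik3cg at 5.08 led, with Rps6ka1 at 4.03, while Prr5l at -4.55, Phlpp1 at -2.53 and Sesn3 at -2.29 were the lowest.

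Ependymal-like nuclei had 13 of 30 further genes called, 3 higher and 10 lower (46.5% of all genes), with Inpp4a at 1.48, the autophagy kinase gene Ulk2 at 1.33 and Sesn1 at 1.19 the highest and Inpp4b at -2.96 and Prr5l at -2.21 among the lowest. Sgk1 had 3 UMIs there, a ratio to the other nuclei of 0.0615 (95% exact counting interval 0.0127 to 0.180). Choroid plexus-like barcodes had 20 of 28 called, 6 higher and 14 lower (78% of all genes), with Cab39l at 2.98, Sec13 at 2.65 and Rps6 at 2.57 the highest and Phlpp1 at -5.76 among the lowest. Prr5l and Inpp4b had 1 UMI each in those barcodes, ratios of 0.00113 (2.85e-05 to 0.00628) and 0.00231 (5.85e-05 to 0.0129).

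Of the 43 members, 19 overlap a gene annotated on the other strand in GRCm38, among them Mtor, Rptor, Rps6kb1, Akt1s1, Lamtor1 and Stk11, and without strand the reads of such a pair cannot be told apart. On chromosome 17, Mlst8 (17:24473551-24479078, minus strand) overlaps Bricd5 (17:24473884-24475469, plus strand), and Tsc2 (17:24595816-24632630, minus strand) overlaps the end of Pkd1 (17:24549834-24596508, plus strand), and whether counting used strand is not given in the sources used here. Bricd5, chosen after its values were seen, had 0, 4, 3 and 4 UMIs in all kept barcodes of Tsc2 wt/wt mice and 60, 51, 154 and 75 in Tsc2 mut/mut mice, with no overlap and a log2 difference of 4.61 (0.52, edgeR adjusted p = 0.0324). Mlst8 had 18, 71, 30 and 54 UMIs against 53, 31, 97 and 37, with overlapping genotypes and no call. In all, 7 members shared 50-base words of their 3′ ends with other annotated transcripts, at most 3.66% (Tsc2) apart from Akt2.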

How the data were processed

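Single-nucleus RNA sequencing was read in V-SVZ nuclei of 8 mice (4 Tsc2 wt/wt and 4 Tsc2 mut/mut, grouped by the genotype label, 1 library each). The deposited matrices hold raw UMI counts per gene and barcode, which the authors made with Cell Ranger 7.0.1 (the version stands in the file headers) and the GRCm38 (mm10) genome, forcing 60000 barcodes per library. The authors' own clustering in Seurat 4 was not used here. Sorting gated out doublets and no doublet caller was run.

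Barcodes with at least 300 genes were kept and split at 20% mitochondrial UMIs. Counts were summed per mouse and tested over all genes with edgeR 4.0.16 in R 4.3.3 (TMM normalization, filterByExpr, robust glmQLFit and glmQLFTest, with limma 3.58.1 installed), with Benjamini-Hochberg adjustment and a threshold of 0.05. Comparisons within a mouse used the mouse as a block and left out the 13 mitochondrially encoded genes. DESeq2 1.42.0 was the alternative test. Levels and intervals were computed with Python 3.11.15, numpy 2.4.6, pandas 2.3.3 and scipy 1.17.1. The steps were checked on simulated data.

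The members, the 59 further genes and the marker lists were chosen with earlier results of these data known. The scoring rule of the marker gate (3 markers, 2 times those of any other class) was set after looking at the data, as were 3 departures: the use of mice with at least 10 barcodes of a class (at least 3 per genotype for genotype tests, at least 4 in all for class tests), the fits without choroid plexus-gated barcodes and the fits scaled by total UMIs. Values in every mouse are given for Tsc1, Tsc2, Tbc1d7, Rheb, Mtor and the 5 members with the smallest p in the genotype comparison of nucleus-like barcodes. In class comparisons the 5 highest and 5 lowest called members and the 3 highest and 3 lowest called further genes are named, and other members are named to account for all 43.

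Library totals of 11182335 to 36773832 UMIs and 191 to 942 nucleus-like barcodes per mouse limit the precision of single genes. Tsc2, for example, had 178 UMIs over all nucleus-like barcodes. Intervals and the 3-count floor cover counting error only. The labels do not say that replicate numbers pair mice, and same-numbered mice did not deviate together (correlations of deviations between -0.65 and 0.40 in nucleus-like barcodes), so no block on the number was used. The labels do not say whether mice came from separate litters, and p-values measure the spread between these mice. Promoter windows were matched to RefSeq on GRCm38.p6 by symbol for 40 of the 43 members, and gene spans were taken from GENCODE on the same build. Alternatives were the gene minimum, the mitochondrial limit, normalization, the low-count filter, removal of barcodes shared by libraries, the gate, a replicate block and leaving out each mouse.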

Additional observations from a re-analysis of the deposited data

Results flagged for a closer look

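Of 44 groups of 4 mice tested for a value far from the rest, 2 were picked out, where chance gives about 1 in 20. Tsc2 in mitochondria-rich barcodes of Tsc2 wt/wt replicate 3 was 20.2 CPM, while the other Tsc2 wt/wt mice lay between 25.1 and 25.9 CPM. The share of nucleus-like barcodes gated as choroid plexus in Tsc2 mut/mut replicate 4 was 66.3%, while the other Tsc2 mut/mut mice lay between 4.64% and 9.87%. No member moved one way in every mouse of 1 genotype and the other way in every mouse of the other, among the 43 compared between nucleus-like and mitochondria-rich barcodes.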

How the results depend on the processing

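The count of members called between genotypes stayed at 0 under each alternative run for all kept, nucleus-like and mitochondria-rich barcodes, except that no filter on low counts gave 1 in mitochondria-rich barcodes (Akt2). Same-numbered mice did not pair, and with a replicate block 0 members were called in each genotype comparison. Between nucleus-like and mitochondria-rich barcodes 33 to 39 members were called over all settings, and 35 to 39 on leaving out each mouse. Between mitochondria-rich and lowest-count barcodes the count of 0 became 4 with a 10% mitochondrial limit, 3 with a 30% limit and 1 with total UMIs. With all kept barcodes gated, the called members were 14 (NSC/astrocyte-like), 28 (oligodendrocyte-like), 29 (microglia-like) and 19 (ependymal-like), and with the stricter gate 14 and 7 in the first 2, while that gate could not be fitted for ependymal and choroid plexus. In the ependymal-like class no filter gave 15 and removal of choroid plexus-gated barcodes 5. The share of all genes called under these settings is not given here.

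Directions turned for Akt1 in all kept barcodes with a minimum of 500 genes (-0.17), Tsc2 in nucleus-like barcodes with a 10% limit (-0.12), and, with all kept barcodes gated, for Lamtor5 (0.15) and Lamtor4 (0.0016) in the NSC/astrocyte-like class and Rptor (0.40) in the oligodendrocyte-like class. The nucleus-like share differed by 17.8 percentage points (p = 0.114, exact permutation test) with a minimum of 500 genes. Leaving out each mouse gave differences of -2.24 to 0.331 points for that share, and log2 ranges across 0 in all kept barcodes for Rheb (-0.033 to 0.31), Lamtor4 (-0.092 to 0.41), Akt1 (-0.047 to 0.13), Lamtor5 (-0.14 to 0.38) and Lamtor2 (-0.15 to 0.34), in nucleus-like barcodes for Rheb (-0.088 to 0.94) and Lamtor5 (-0.014 to 1.46), and in mitochondria-rich barcodes for Tbc1d7 (-0.20 to 0.049), Rheb (-0.074 to 0.031), Mtor (-0.33 to 0.040) and Rragd (-0.12 to 0.035). Of the named genes' values, 618 kept direction and call on leaving out a mouse, 13 turned and 14 lost the call, and under the other settings 577, 5 and 19. Where a result changed, the cause was not tested. The depth of 176 to 1218 barcodes per gated class limits genotype tests within them to 4 to 30 members.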
